A study of Mus musculus with 8 samples.

Results

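Wells given the working name of Müller glia without reactive transcripts were the nanowells with at least 15000 CPM of Apoe (a gene's read count scaled by the total reads of its well), at least 20000 CPM summed over Apoe, Glul, Rlbp1, Clu, Dkk3, Slc1a3 and Aqp4, and 0 reads of A2m, Serpina3n, C4b and Gfap. The rule held for 192 of 3747 wells. They are called member wells below, because rod reads outweighed the Müller markers in many of them. Levels of these 11 genes chose the wells, so those levels are a description and carry no test. The retinas came from mice of strain C57BL6/J (WT) and from the Spata7 mutant line (KO), whose genetic background is not given in the sources used here, at 1, 3 and 6 months of age. All mice are labelled male and were kept on a standard diet in a light and dark cycle. Spata7 encodes a protein of the photoreceptor connecting cilium, and its loss is known to cause retinal degeneration. Each genotype and age is 1 single-cell RNA library made on an ICELL8 chip, a plate of 5184 nanolitre wells in which wells holding 1 cell were picked by imaging. The labels do not say how many animals went into a library. Comparisons of genotypes rest on 3 libraries per genotype across the 3 ages, and comparisons of well classes on differences within libraries. The gene tests draw each gene's variance towards that of other genes. A p-value there does not measure that gene's spread alone.

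Müller glia span the retina from the vitreal surface to the photoreceptors. They clear glutamate through Slc1a3 (GLAST) and convert it to glutamine with Glul (glutamine synthetase), move water and potassium through Aqp4 and Kcnj10, buffer pH with carbonic anhydrases such as Car14 and Car2, bind retinoids with Rlbp1 (CRALBP) and supply Apoe-bearing lipoproteins. Under injury they become reactive and raise Gfap, the acute phase genes A2m and Serpina3n, and the complement gene C4b. The rule asks for a high level of Apoe and a high sum over 7 marker genes, not for a read of each, and for 0 reads of the 4 reactive genes. It does not use Kcnj10, Car14 or Car2.

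Before the results, 3 features of the libraries matter. The library labelled WT 1 month held 20091 reads of Xist and 0 reads of the 4 Y-linked genes looked at, whereas each other library held 1842 to 24002 Y-linked reads and at most 23 of Xist, so this library goes against its label of male, and results are given with and without the 1 month age. Reads per library ran from 12356586 (WT 3 months) to 182310499 (WT 1 month). Spata7, the targeted gene, stood at 20.2 to 32.2 CPM over all wells of the WT libraries and at 1.38 to 4.07 CPM in the KO libraries. Within member wells Spata7 had 142 reads in 6 WT 1 month wells, 118 reads in 1 WT 6 months well, 3 reads in 1 KO 6 months well and 0 elsewhere, so the members cannot check the genotype at this depth. Chip positions shared by member wells of different libraries numbered 2 between WT 1 month and KO 3 months, 1 between WT 1 month and KO 6 months, and 0 between all other pairs.

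Member wells were found in every library. In the WT libraries they were 71 of 718 wells at 1 month, 8 of 216 at 3 months and 12 of 347 at 6 months. These are shares of 9.89% (exact Clopper-Pearson 95% interval 7.80 to 12.3), 3.70% (1.61 to 7.17) and 3.46% (1.80 to 5.96). In the KO libraries they were 29 of 792 wells, 46 of 797 and 26 of 877, or 3.66% (2.47 to 5.22), 5.77% (4.26 to 7.62) and 2.96% (1.95 to 4.31). The intervals cover counting error only. The KO share was below the WT share at 1 and 6 months and above it at 3 months, and only at 1 month were the intervals apart. The mean difference over the 3 ages was -1.55 percentage points (exact two-sided permutation test within ages, p = 0.75), and the smallest p this design allows is 0.25. It was 0.787 points without the 1 month age and 0.0340 points with an Apoe minimum of 10000 CPM, both of the opposite sign.

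Wells that met the same minimums but had at least 1 read of the 4 reactive genes numbered 7, 1 and 0 for WT and 32, 54 and 31 for KO at 1, 3 and 6 months. The KO share of such wells was higher by 3.07, 6.31 and 3.53 points (mean 4.30, exact permutation p = 0.25). Members were therefore 71 of 78, 8 of 9 and 12 of 12 of the qualifying WT wells, and 29 of 61, 46 of 100 and 26 of 57 of the qualifying KO wells. A count of 0 depends on depth. The median member held 411759, 62891 and 81113 reads at the 3 WT ages and 18228, 39033 and 148450 reads at the 3 KO ages, and reactive wells were deeper than member wells in each library that had both. With every well thinned to 10000 reads the mean difference in member share was -1.19 points.

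**Figure D1:**
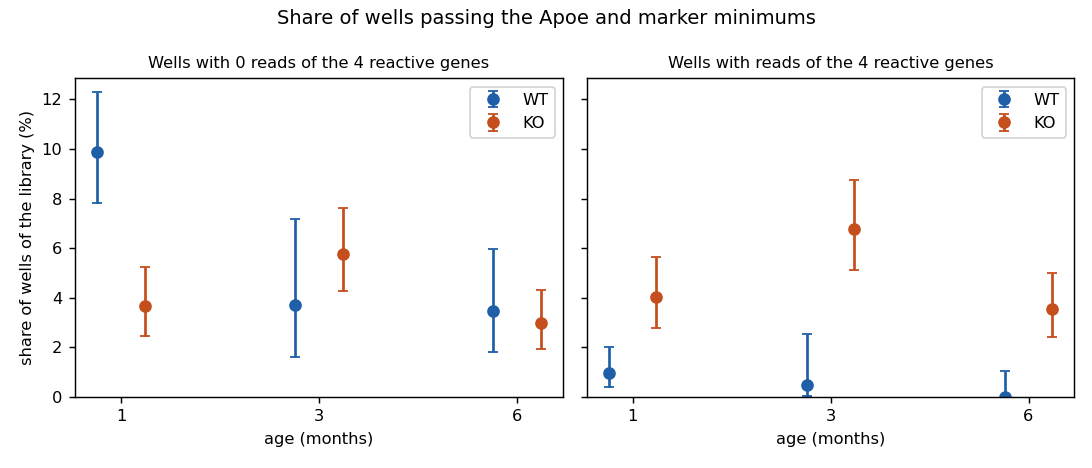
Share of wells in each library that met the Apoe and summed-marker minimums, with 0 reads (left) or at least 1 read (right) of A2m, Serpina3n, C4b and Gfap. Points are 1 library each, bars are exact 95% intervals. On the left KO is below WT at 1 month and the intervals overlap at 3 and 6 months. On the right the KO points are at 4.04, 6.78 and 3.53% and the WT points at 0.975, 0.463 and 0% (upper bound 1.06%).

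Near the Apoe minimum, 4, 0 and 2 WT members and 9, 15 and 7 KO members lay between 15000 and 20000 CPM at 1, 3 and 6 months. Just below it, 6, 3 and 5 WT wells and 42, 63 and 14 KO wells without reactive reads lay between 10000 and 15000 CPM. The lowest member in a library had 15178 to 20485 CPM of Apoe. These counts come from libraries of unequal size. Apoe, the main lipoprotein of glia, had a median over all other wells of 83.9, 183 and 250 CPM at the WT ages, against 3274, 4776 and 2136 CPM at the KO ages.

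The label was checked with Car14, a Müller marker that the rule did not use. Car14 had reads in 61 of 71, 7 of 8 and 12 of 12 WT members and in 12 of 29, 34 of 46 and 21 of 26 KO members at 1, 3 and 6 months. Among all other wells it had reads in 65 of 647, 14 of 208 and 27 of 335 WT wells and in 178 of 763, 303 of 751 and 245 of 851 KO wells, a lower share than among members in each library. The wells with reactive reads, part of the other wells, had Car14 reads in 5 of 7 and 1 of 1 WT wells at 1 and 3 months. In KO they had them in 20 of 32, 53 of 54 and 29 of 31 wells, a higher share than among KO members in each library. Member wells were not matched to the other wells for depth here. The genes of the rule chose the wells, so their reads are a description only. A read of each of the 7 marker genes and of Car14 was present in 123 of 192 members, which were 59 of 71, 6 of 8 and 12 of 12 WT members and 6 of 29, 19 of 46 and 21 of 26 KO members. Aqp4, the glial water channel, had reads in 64, 7 and 12 of these WT members and in 11, 27 and 23 of the KO members. In 7 members, 2 of them in WT 1 month, 3 in KO 1 month and 2 in KO 3 months, Rlbp1, Slc1a3 and Aqp4 all had 0 reads.

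Rod transcripts were present in every member well. The 20 rod markers summed to at least as many CPM as the 7 marker genes of the rule in 82 of 192 members. These were 7 of 71, 1 of 8 and 6 of 12 WT members and 24 of 29, 30 of 46 and 14 of 26 KO members. The median member had 6586, 29780 and 54396 CPM of rod markers across the WT ages, against 69684, 46818 and 49552 CPM across the KO ages. The data therefore go against the label for most members of all 3 KO libraries and for 6 of 12 at WT 6 months, since rod reads outweighed the Müller markers. The members are read here by their rule, as Apoe-high wells without reads of the 4 reactive genes. The source of the rod reads in these wells was not tested.

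**Figure D2:**
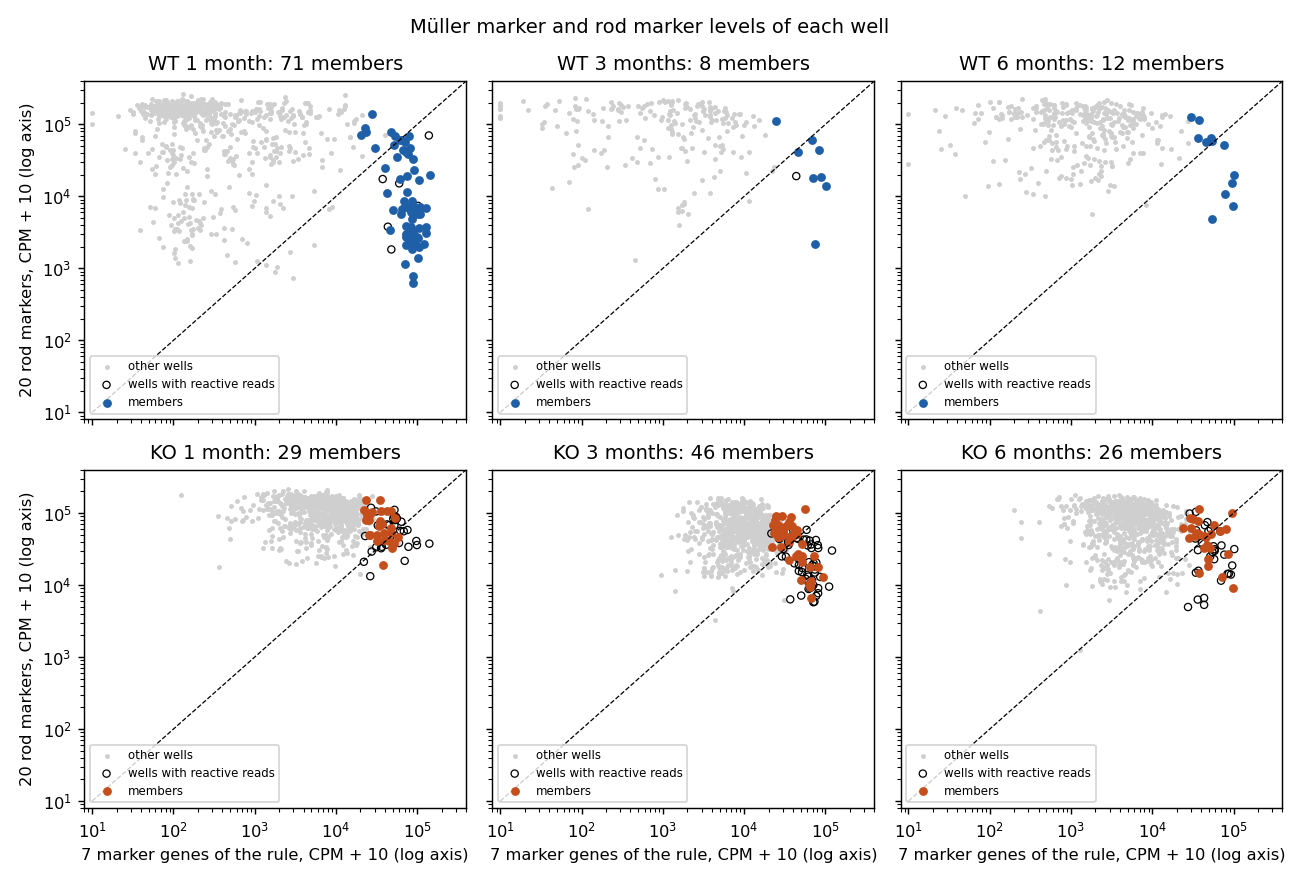
Summed CPM of the 7 marker genes of the rule against summed CPM of the 20 rod markers, 1 point per well and 1 panel per library, both on log axes with 10 CPM added. The dashed line marks equal sums. Most WT 1 month members lie below it, while 24 of 29 KO 1 month members lie on or above it and meet the cloud of other wells.

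The genes that chose the wells are described first, as CPM of the summed member reads of a library. Apoe stood at 51512, 42651 and 37437 CPM in WT members at 1, 3 and 6 months and at 24190, 27846 and 34202 CPM in KO members. Glul stood at 9497, 6008 and 7666 CPM in WT and at 2572, 4927 and 4305 CPM in KO members. Rlbp1 stood at 5669, 5822 and 3786 CPM in WT and at 1565, 3301 and 2374 CPM in KO members. KO 1 month was the lowest library for each of these 3 genes. Aqp4 stood at 2070, 1288 and 1849 CPM in WT and at 839, 807 and 680 CPM in KO members. Clu, a secreted chaperone, stood at 7784 to 12716 CPM in WT and at 5407 to 6407 CPM in KO members. Dkk3 stood at 3360 to 4201 CPM in WT and at 1712 to 2524 CPM in KO members, and Slc1a3 at 1762 to 2096 CPM in WT and at 777 to 1314 CPM in KO members. For all 7 marker genes of the rule the KO libraries lay below the WT libraries without overlap, as did 3.23% of the genes tested outside the rule, and nothing is read from this because the rule used these levels.

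Members also varied among themselves. The 6 marker genes of the rule other than Apoe summed to a median of 30092 CPM in the 71 WT 1 month members, with a range from 0 to 48422, and to a median of 11082 CPM in the 29 KO 1 month members, with a range from 1593 to 26718. Across the wells of a library this sum fell as the rod marker sum rose. Spearman's rank correlation between them was -0.43, -0.52 and -0.59 for WT members and -0.32, -0.63 and -0.60 for KO members at 1, 3 and 6 months, over 71, 8, 12, 29, 46 and 26 wells. Both sums share each well's read total, so this is a description.

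Against all other wells of the same library, member wells carried more of the Müller markers that the rule had not used. All other wells include the wells with reactive reads. Summed reads of members and of other wells were compared within libraries with edgeR's quasi-likelihood test, leaving out the 11 genes of the rule. At a Benjamini-Hochberg adjusted p under 0.05, 44 of 16585 genes were called (0.265%), 29 of them higher in members (0.175%) and 15 lower (0.0904%). DESeq2 called 3072, of which 365 were higher and 2707 lower, and 33 of the 44 were among them. Without the 6 months age edgeR called 0 (2647 had an unadjusted p under 0.05), and without the 1 month age it called 36. Because the wells were chosen by marker levels in the same wells, these calls describe what came with the chosen genes and support nothing on their own.

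Of 28 Müller markers outside the rule, all 28 had a fitted change above 0, and 10 were called higher: Car14, Car2, Dbi, Prdx6, Abca8a, Gpr37, Mlc1, Cp, Cd9 and Spc25. Their median change was 2.59 on the log2 scale against -1.62 over all genes tested. Mlc1, a membrane protein of glial endfeet, stood at 536, 1026 and 522 CPM in WT and 544, 831 and 288 CPM in KO members, against 12.1 to 40.7 CPM in other WT wells and 93.5 to 217 CPM in other KO wells. Its log2 change was 3.50 (SE 0.60), and members were above other wells in all 6 libraries. Gpr37, a glial receptor, followed with 3.37 (SE 0.63), and Car14 with 3.14 (SE 0.61).

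Within the same list Spc25, a kinetochore subunit, was higher by 3.25 (SE 0.54) on the log2 scale, the iron oxidase Cp by 3.22 (SE 0.58) and the tetraspanin Cd9 by 3.13 (SE 0.52). Genes outside the list were called higher too. Rrh, a retinal opsin-family gene, was higher by 3.29 (SE 0.57) on the log2 scale, the alarmin Il33 by 3.25 (SE 0.61), the calcium-binding protein S100a16 by 3.19 (SE 0.60) and the lipid phosphatase Plpp3 by 3.13 (SE 0.64). In the lipid, glycolysis, antioxidant and ion lists edgeR called 1 to 3 genes each as higher, against 0.175% of all genes tested. Car2, Car14 and Prdx6 are also in the Müller list. Acsl3, which activates fatty acids, was the 1 of 23 lipid genes tested to be called (2.59, SE 0.39). Eno1 was the 1 of 19 glycolysis genes (1.01, SE 0.17), with 8115, 5663 and 3534 CPM in WT members and 2559, 3632 and 2932 CPM in KO members. The peroxiredoxins Prdx1 (1.60, SE 0.25) and Prdx6 (2.75, SE 0.50) were the 2 of 19 antioxidant genes, and Car2, Car14 and the G protein subunit Gnai2 were the 3 of 20 ion and transmitter genes.

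Of the 15 genes called lower by edgeR, 8 were rod and 2 cone markers. Of the 20 rod markers 8 were called lower (among them Sag, Gnat1, Pde6g, Gngt1, Rom1, Prph2 and Rcvrn) and 0 of 20 had a change above 0. The rod median was -1.20 against -1.62 over all genes tested, of which 2893 of 16585 were above 0. The all-gene median was -1.07 with DESeq2 and -1.04 with thinned wells, so it is an unsteady baseline. Summed, the rod markers were lower in members in each library. WT members held 16824, 32139 and 39508 CPM, against 86030, 104844 and 95208 CPM in other WT wells. KO members held 71384, 39588 and 46510 CPM, against 102941, 58513 and 78750 CPM in other KO wells. Pde6g, the inhibitory subunit of rod phosphodiesterase, was lower in members at -1.34 (SE 0.18), Rcvrn, a calcium sensor, at -1.33 (SE 0.26) and Gngt1, the rod transducin gamma subunit, at -1.25 (SE 0.21). Of the 10 cone markers Arr3 (cone arrestin, -4.54, SE 0.75) and Opn1mw (-3.84, SE 0.66) were called lower, and the cone median was -4.01. The ribosome-associated gene Tma7 had -1.31 (SE 0.26), and Otor, Ptprr, Mogat1 and Ttr had -9.83, -9.48, -8.43 and -5.81, on few or 0 member reads in most libraries, where the fitted size depends on the prior count. No bipolar, amacrine and horizontal, ganglion, microglia, astrocyte, endothelial or pericyte marker was called.

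**Figure D3:**
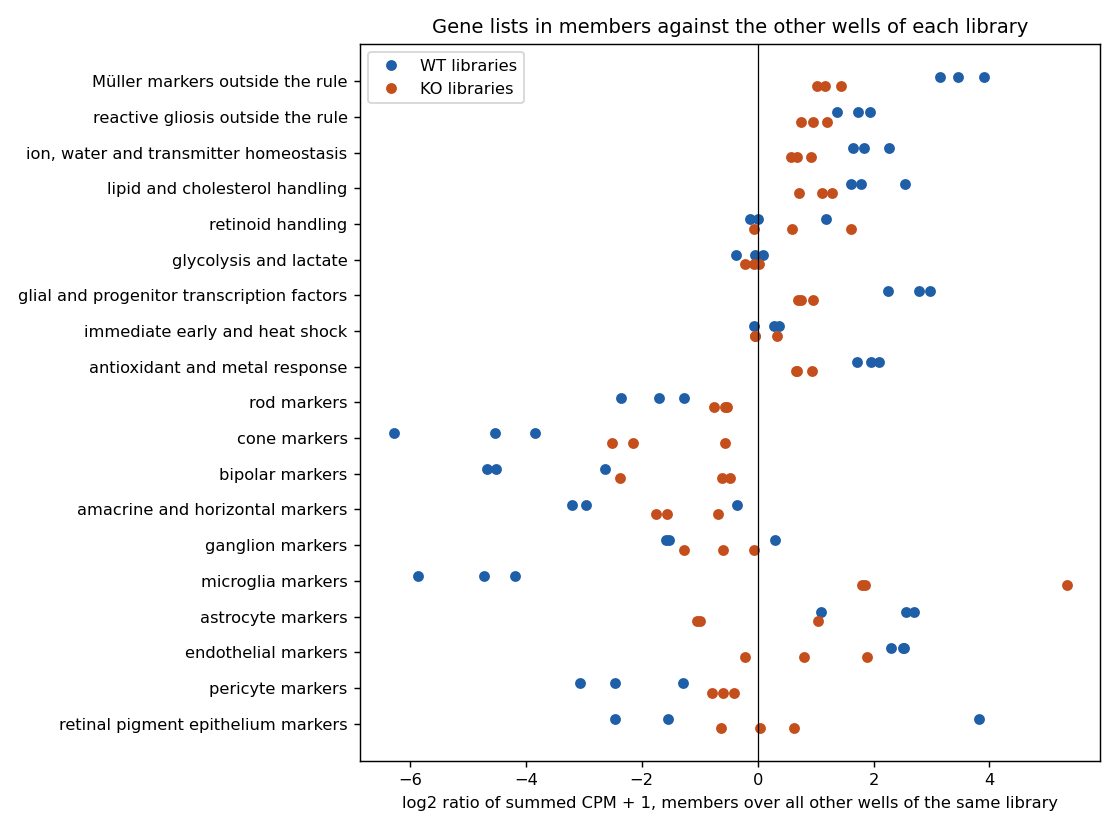
Log2 ratio of summed CPM (1 added) of each gene list in members over all other wells, 1 point per library, WT in blue and KO in orange. Müller markers lie right of 0 in all 6 libraries and cone and rod markers left of it. For both groups the KO points are nearer 0 than the WT points, and the microglia points lie left of 0 in WT and right of 0 in KO libraries.

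The KO libraries were then compared with the WT libraries within member wells, with age as a term of the fit. Few genes passed: 5 of 9950 (0.0503%) were called by edgeR, all with a fitted change above 0 in KO members, and 0 were called lower, while 220 had an unadjusted p under 0.05. DESeq2 called 249, of which 189 were higher and 60 lower, and 3 of the 5 were among them. The median fitted change over all genes tested was 0.58. The called genes were Ctss, C1qb, Cst3, Sag and H2-Ab1. Ctss and C1qb are in the microglia list, and H2-Ab1 is a gene of antigen-presenting cells. Which cells gave the Cst3 reads was not tested.

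Ctss (cathepsin S, a lysosomal protease of microglia, ENSMUSG00000038642) stood at 0.838, 0 and 0 CPM in WT members and at 286, 420 and 1114 CPM in KO members at 1, 3 and 6 months. The log2 change was 10.1 (SE 1.34, edgeR adjusted p = 4.36e-10). C1qb (a chain of complement C1q, ENSMUSG00000036905) stood at 9.99, 0 and 0 CPM in WT and at 204, 304 and 1050 CPM in KO members, a change of 8.62 (SE 1.49, edgeR adjusted p = 2.71e-05). KO was above WT at each age for both, and the fitted sizes depend on the prior count because WT libraries were at 0. These reads sat in few wells: Ctss had reads in 3 of 29, 4 of 46 and 4 of 26 KO members and C1qb in 1, 4 and 5. At WT 1 month, the deepest library, 20 of 71 members had a read of C1qb, a higher share than in any KO library. For Ctss 8 of 71 did, a share below that of KO 6 months and above those of KO 1 and 3 months. At WT 3 and 6 months 0 members had a read of either gene. H2-Ab1, a chain of MHC class II, was called (adjusted p = 0.0165 by edgeR) on reads in 0, 3 and 1 KO members, at 0, 1645 and 366 CPM. In WT members it stood at 2.17, 0 and 0.666 CPM, so at 1 month WT was above KO.

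Microglia markers in members moved with these calls. The 12 microglia markers summed to 31.5, 0 and 0 CPM in WT members and to 858, 983 and 3810 CPM in KO members, and 5 KO wells (2 at 1 month, 1 at 3 months, 2 at 6 months) each held over 5000 CPM of them. One of these, at 6 months, was the deepest KO 6 months member and held 887664 of its 6333349 member reads. Of the 11 tested microglia markers C1qb and Ctss were called. In KO 1 month C1qa, C1qc, Cx3cr1, Aif1, P2ry12 and Cd68 were at 0 CPM in members, and in KO 6 months P2ry12 stood at 186 CPM and Trem2 at 351 CPM. With the 5 wells left out, 1 gene was called (Sag, edgeR adjusted p = 0.00302), and the changes of Ctss and C1qb were 6.71 and 6.83 with an adjusted p of 1. That alternative was added after the data were seen. The left-out wells were all KO and were chosen by a sum that holds Ctss and C1qb, so a smaller change of these 2 genes follows from the choice.

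Cst3 and Sag were not confined to a few wells. Cst3, the secreted protease inhibitor cystatin C, had reads in 71, 5 and 12 WT and 27, 41 and 26 KO members. It stood at 1361, 547 and 1464 CPM in WT and at 5516, 3553 and 5467 CPM in KO members, a log2 change of 2.22 (SE 0.38, edgeR adjusted p = 2.08e-05), and every KO library was above every WT library. In all other wells Cst3 stood at 4442, 3899 and 3401 CPM in WT and 5811, 3615 and 3926 CPM in KO libraries, where the genotypes overlapped. Without the 5 wells high in microglia markers its change was 1.57 with an edgeR adjusted p of 0.594.

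Sag, the rod arrestin that ends the light response, stood at 1102, 2160 and 3711 CPM in WT and at 12898, 4032 and 6792 CPM in KO members. Its log2 change was 1.76 (SE 0.32, edgeR adjusted p = 7.03e-05), with every KO library above every WT library. Of the 20 rod markers Sag was the 1 called and 19 had a change above 0. Their median was 0.82 against 0.58 over all genes tested, of which 6152 of 9950 were above 0. For 9 of the 20 KO members were above WT members without overlap, against 7.89% of all genes. Summed, they reached 16824, 32139 and 39508 CPM for WT members, and for KO members 71384, 39588 and 46510 CPM. With the 82 members left out in which rod markers were at least as high as the marker genes of the rule, an alternative added after the data were seen, edgeR called 0 genes while 45 had an unadjusted p under 0.05. Cst3 then had a change of 2.10 with an adjusted p of 1. No value is given for Sag, which is part of the sum that chose the left-out members, most of them KO.

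The calls also turned on single ages. Without the 1 month age, and so without the library that goes against its label, 11 genes were called and all 5 remained. Without 3 months 7 were called, and 2 of the 5 remained (Ctss and C1qb). Without 6 months 1 gene was called, and none of the 5 remained. With genotype alone and no term for age, 1 gene was called, and with wells thinned to 10000 reads edgeR called 0 while 138 had an unadjusted p under 0.05.

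The Müller markers gave no call between genotypes. Of the 28 Müller markers outside the rule, 0 were called by edgeR, 5 had a change above 0, and the median was -0.65 against 0.58 over all genes. Summed, they reached 29663, 30677 and 19458 CPM for WT members, and for KO members 14028, 17506 and 14087 CPM, so every KO library was below every WT library. For 8 of the 28, KO members were below WT members without overlap, against 3.23% of all genes tested, and for 0 of them above, against 7.89%. Prdx6 stood at 4921, 3180 and 2196 CPM in WT and at 869, 1860 and 1579 CPM in KO members, a change of -1.20 (SE 0.42, edgeR adjusted p = 1). Spc25 stood at 3402, 5665 and 2484 CPM in WT and at 1526, 2197 and 2245 CPM in KO members, a change of -0.88 (SE 0.37, edgeR adjusted p = 1). The groups did not overlap for either gene. Mlc1 and Car14 overlapped between the genotypes.

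Other gene lists gave 0 calls in edgeR's comparison of genotypes within members, among them 17 tested genes of reactive gliosis outside the rule (11 above 0, median 0.42), 18 tested genes of glycolysis (9 above 0, median -0.03) and 19 glial and progenitor transcription factors (4 above 0, median -0.70). For 4 of the 17 genes of reactive gliosis KO members were above WT members without overlap, against 7.89% of all genes tested, and for 0 below, against 3.23%. Neither H2-D1 nor Serping1, of this list, was called. H2-D1, an MHC class I chain, stood at 66.2, 0 and 62.6 CPM in WT and at 435, 447 and 285 CPM in KO members. Serping1, the C1 inhibitor, stood at 0.993, 0 and 28.0 CPM in WT and at 291, 107 and 78.2 CPM in KO members. Hes1, a Notch target of glia, stood at 500, 374 and 399 CPM in WT and at 99.4, 245 and 395 CPM in KO members. Mars, Trap1, 1700019D03Rik, Dcdc2a and Dgat1, with the largest negative changes that had 1 sign at every age but no call by edgeR, had changes of -6.30, -5.02, -6.26, -6.45 and -7.65, with edgeR adjusted p of 0.412 for Dcdc2a and 1 for the rest, on reads in 0 to 6 KO members of a library. DESeq2 called all 5 lower in KO members.

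**Figure D4:**
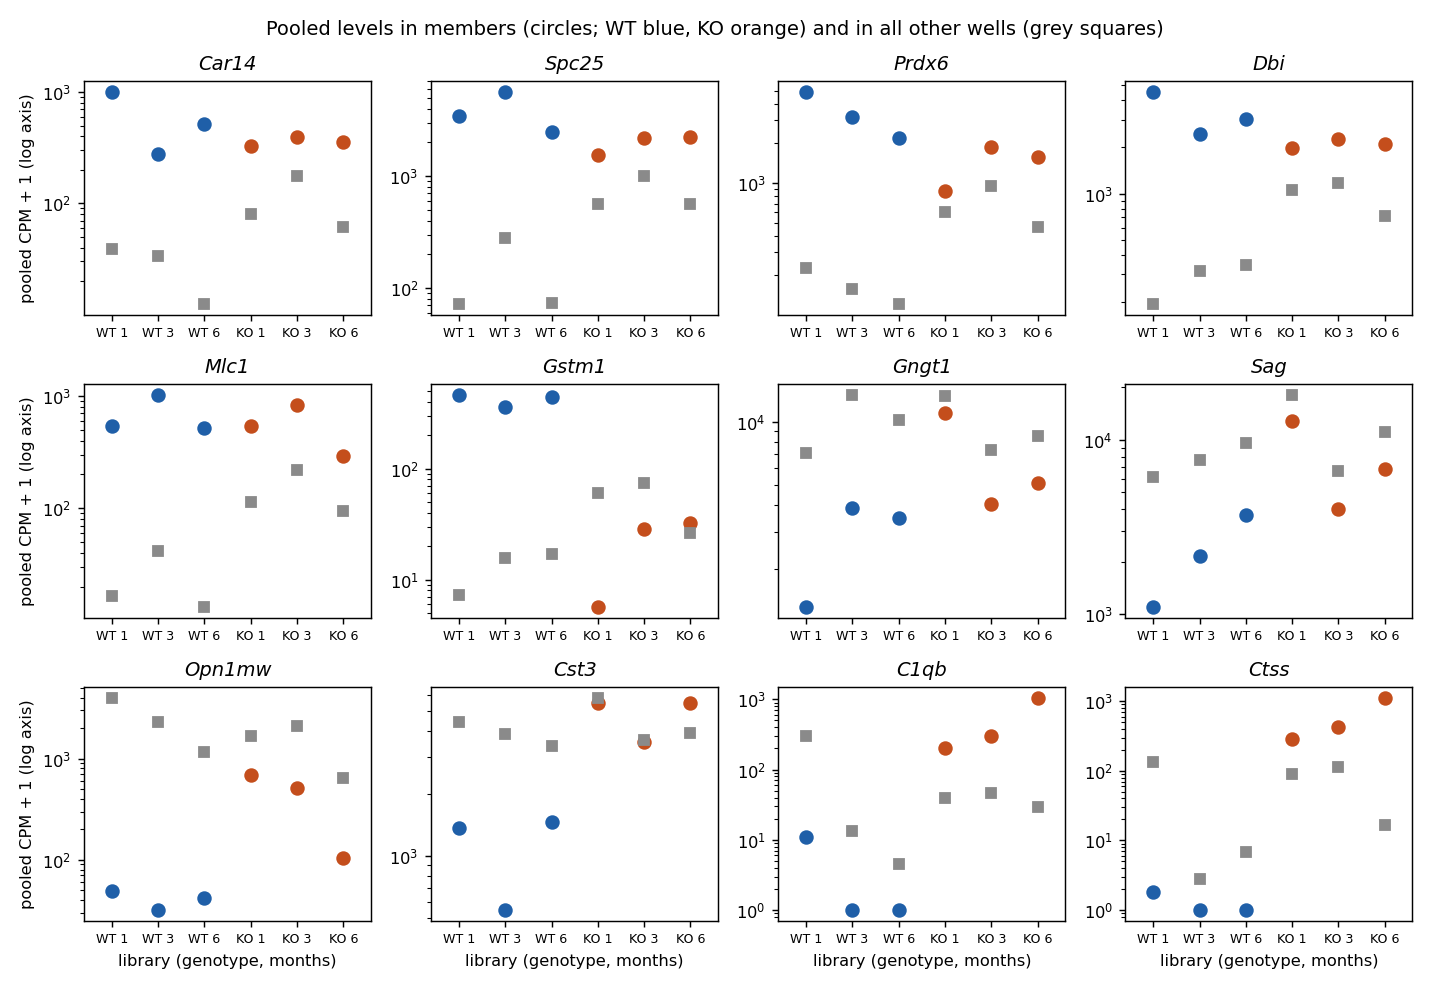
Pooled CPM (1 added, log axis) of 12 genes in members (circles, WT blue and KO orange) and in all other wells (grey squares), by library. Car14, Spc25, Prdx6, Dbi and Mlc1 stand above the other wells in every library, Gstm1 does so by a wide margin in WT libraries only, and C1qb and Ctss are at 1 to 11 on this scale in WT and above 200 in KO members.

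Whether the KO libraries differed from WT in members otherwise than in the remaining wells was tested as an interaction of genotype with well class in edgeR. A value here is the log2 KO over WT change in members minus that in all other wells. For 42 of 16585 genes it was called (0.253%), above 0 for 27 (0.163%) and below 0 for 15 (0.0904%). DESeq2 called 306, of which 166 were above 0 and 140 below, and only 9 of the 42 were among them. Of the 20 genes named by size below, 12 were not called by DESeq2, among them Spc25, Prdx6, Opn1sw and Arr3. The contrast between members and all other wells was smaller in KO libraries on both sides. Müller markers stood out less, and photoreceptor markers lay less far below their level in other wells.

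Of the 28 Müller markers outside the rule 8 were called below 0 (Car2, Dbi, Prdx6, Crym, Cp, Cd9, Spc25 and Dapl1) and 1 had a value above 0, with a median of -2.76 against 0.23 over all genes. The rule chose wells by marker levels, and these markers went with its genes across the member wells of each library. Spearman's rank correlation of their sum with that of the 6 rule markers other than Apoe was 0.48 to 0.81. These calls describe wells chosen by related levels and support nothing on their own. For Spc25 the value was -3.38 (SE 0.40, edgeR adjusted p = 1.43e-07). Other WT wells held 71.2, 277 and 72.6 CPM of it, other KO wells 563, 1008 and 564 CPM. Prdx6, a peroxiredoxin with phospholipase activity, had -3.11 (SE 0.40, edgeR adjusted p = 5.80e-07), with 227, 156 and 121 CPM in other WT wells and 601, 941 and 461 CPM in other KO wells. Dbi, which binds acyl-CoA, had -2.28 (SE 0.40, edgeR adjusted p = 0.000502) and stood at 4559, 2414 and 3024 CPM in WT and 1961, 2257 and 2082 CPM in KO members. In each of the 3 genes both parts contributed: members were lower in KO and other wells higher, without overlap. The other wells include those with reactive reads, 7, 1 and 0 in WT and 32, 54 and 31 in KO libraries at 1, 3 and 6 months. At KO 3 months those reactive wells held 3501 CPM of Spc25 and 2918 CPM of Prdx6. How far the other wells rose without the reactive wells was not tested.

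Further genes below 0 were Dapl1 (-4.34), Ccn1 (-4.04), Crip2 (-3.64), Crym (-3.32), S100a16 (-3.25), Cnn3 (-3.15) and Cp (-3.09). Ccn1, a matricellular protein, and Cnn3, an actin-binding calponin, are not in the marker lists. Cnn3 stood at 1410, 1638 and 927 CPM in WT and at 342, 604 and 511 CPM in KO members, and at 46.6 to 99.3 CPM in other WT wells against 189 to 394 CPM in other KO wells. Gstm1, a glutathione S-transferase, had the value -6.51 (SE 1.43, edgeR adjusted p = 0.0168). It stood at 464, 361 and 443 CPM in WT members and at 4.66, 27.7 and 31.6 CPM in KO members, with reads in 38, 3 and 4 and in 2, 4 and 8 wells. In other wells it stood at 6.32, 14.7 and 16.1 CPM in WT and 59.2, 73.0 and 25.5 CPM in KO libraries, so the 2 classes of wells went opposite ways. The direct comparison of members gave Gstm1 -4.51 with an edgeR adjusted p of 0.224. Gstm1 has close paralogs, and how the authors' counting treated reads shared between them is not given in the sources used here.

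On the other side, 10 of 20 rod markers were called above 0 (among them Sag, Gnat1, Pde6g, Gngt1, Rom1, Prph2, Rp1, Guca1a and Pdc) and all 20 were above 0, with a median of 1.21. Gngt1 stood at 1314, 3891 and 3472 CPM in WT and at 11045, 4080 and 5117 CPM in KO members, and at 7101, 13441 and 10234 CPM in other WT wells against 13205, 7323 and 8573 CPM in other KO wells. Its value was 1.43 (SE 0.17, edgeR adjusted p = 1.43e-07). KO members were above WT members without overlap, by a small margin at 3 months, while at 3 and 6 months the other KO wells were below the other WT wells of the same age.

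Cone markers differed more, with 5 of 10 called above 0 (Opn1sw, Opn1mw, Arr3, Gnat2 and Pde6h), all 10 above 0 and a median of 3.89. Opn1mw, the medium-wavelength cone opsin, stood at 47.7, 30.8 and 41.3 CPM in WT and at 690, 510 and 104 CPM in KO members, and the value was 3.94 (SE 0.49, edgeR adjusted p = 2.86e-07). Opn1sw, the short-wavelength opsin, stood at 68.0, 4.01 and 56.6 CPM in WT and at 1754, 611 and 103 CPM in KO members, with 4.32 (SE 0.71, edgeR adjusted p = 0.000117). For both genes KO members were above WT members without overlap, and most so at 1 and 3 months. Gnat2, cone transducin, had 4.65 (SE 0.89), Pde6h 3.83 (SE 0.68) and Arr3 3.62 (SE 0.88). The 12 bipolar markers gave 0 calls by edgeR, with all 12 above 0 and a median of 4.04. Trpm1, the channel of ON bipolar cells, stood at 10.2, 70.9 and 1.33 CPM in WT and 475, 497 and 23.5 CPM in KO members.

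The remaining genes named by size were Ctss (10.3), Kcne2 (8.83), C1qb (8.72), Rpgrip1 (4.22), which anchors proteins at the photoreceptor connecting cilium, and Cplx3 (3.21), a complexin of ribbon synapses. Kcne2, a potassium channel subunit, had reads in 8, 0 and 0 WT members and 2, 3 and 5 KO members. Ldha, the muscle-type lactate dehydrogenase subunit, was the 1 of 19 glycolysis genes called. It had the value 1.43 (SE 0.32, edgeR adjusted p = 0.0206), standing at 1243, 824 and 841 CPM in WT and 2646, 1810 and 1229 CPM in KO members.

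With the 82 members left out whose rod markers were at least as high as the marker genes of the rule, 4 of the 42 genes remained, among them Opn1sw (4.21, edgeR adjusted p = 7.13e-05), Spc25 (-2.94, 0.00391) and Prdx6 (-2.86, 0.0389). For the rod markers a loss follows from this choice of wells. Without the 1 month age, and so without the library that goes against its label, 22 genes were called, 12 of them among the 42. Of these 22 genes 20 were above 0 and 2 below, against 27 and 15 with all ages. Spc25 had -2.77 (edgeR adjusted p = 0.00350) and Gstm1 -4.84 (edgeR adjusted p = 0.685).

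**Figure D5:**
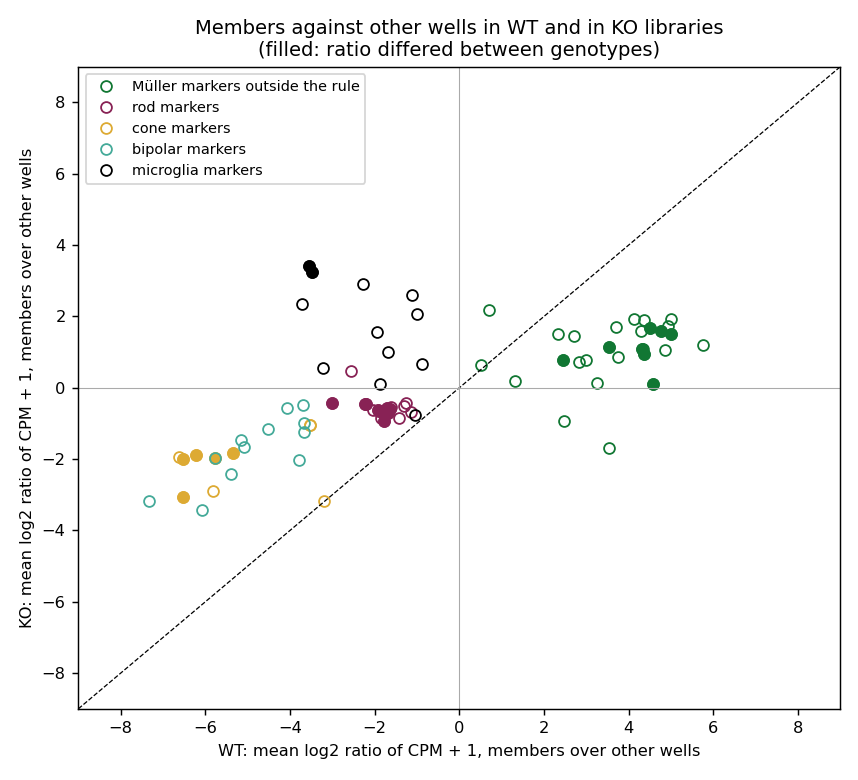
Mean log2 ratio of CPM (1 added) in members over other wells, over the 3 WT libraries on the x axis and the 3 KO libraries on the y axis, 1 point per gene of 5 marker lists. Filled points passed the interaction test in edgeR. Most Müller markers lie below the dashed line of equality at positive values, rod, cone and bipolar markers mostly above it at negative values, and the filled microglia markers are negative in WT and positive in KO.

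Member wells were last set against the wells with reactive reads, in the 4 libraries with at least 5 of each (WT 1 month and the 3 KO libraries). With the 11 genes of the rule left out, 18 of 12639 genes were called by edgeR (0.142%), 5 higher in members (0.0396%) and 13 lower (0.103%). DESeq2 called 128, of which 55 were higher and 73 lower, and 11 of the 18 were among them. The 28 Müller markers gave 0 calls by edgeR, with 9 above 0 and a median of -0.15 against 0.08 over all genes. Among the 19 tested genes of reactive gliosis outside the rule 0 were called and 6 were above 0, with a median of -0.55.

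Higher in members were C1qb (4.44, SE 0.78), Lyz2, H2-Ab1 and the rod genes Gngt1 (0.80, SE 0.18) and Sag (0.77, SE 0.17). None of the 5 stayed called with the 5 members over 5000 CPM of microglia markers left out, an alternative added after the data were seen, in which edgeR called 12 genes, 0 higher and 12 lower. C1qb is part of the sum that chose those members, and there it had a change of 1.55, H2-Ab1 of 0.50, Gngt1 of 0.70 and Sag of 0.72, while Lyz2 had 4.62 (SE 2.18) against 6.69 (SE 1.47) with all members. The lower genes were led by transcripts of the retinal pigment epithelium, the pigmented layer next to the photoreceptors. Ttr, the transthyretin carrier, stood at 20470 CPM in the 7 reactive WT 1 month wells and at 17.4 CPM in the WT 1 month members, with reads in 4 of those 7 wells. In KO libraries it stood at 0.726, 40.2 and 301 CPM in reactive wells and at 0, 9.94 and 0.474 CPM in members. Its change was -7.99 (SE 0.87). Rpe65, the retinoid isomerase, Pmel, Rdh5, Rgr, Pon1, Cox8b, Kcnj13, Col8a1, Pdgfra, Gja1, the prostaglandin synthase Ptgds (-3.86, SE 0.52) and Ccn2 (-2.48, SE 0.54) were the others. The 8 pigment epithelium markers summed to 25661 CPM in reactive WT 1 month wells against 245 CPM in members, and to 225 to 706 CPM in reactive KO wells. The high sum sat in few of the 7 wells, whose median was 971 CPM, and Rpe65 had reads in 2 of them. Without the 1 month age 2 genes were called, 1 of them among the 18. Without 6 months 14 were called, all lower in members and 7 of them among the 18, and without 3 months 24 were called, 14 of them among the 18.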

How the data were processed

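The deposited tables hold read counts per gene and well, 1 table per library. The submitters' processing notes name CASAVA, TopHat2, HTSeq, Seurat, mm10 and GRCm38, with no versions or roles. Of 43628 gene IDs 42461 matched a symbol. All deposited wells were kept and no doublet caller was run. The labels describe imaging for single cells. Molecular identifiers are not described in the sources used here, so reads need not be independent molecules. A pair of ATAC peak lists was not used.

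Counts were summed per library and well class and tested with edgeR 4.0.16 (R 4.3.3, TMM, filterByExpr, quasi-likelihood, Benjamini-Hochberg, threshold 0.05). The 11 rule genes counted in scaling and were dropped before testing. Age was a term when genotypes were compared, and library when well classes were. SE is the change divided by the root of F. The code was tested on simulated data. DESeq2 1.42.0, other scaling, no filter, left-out ages, thinning to 10000 reads and other well sets were alternatives. Thinning left out wells under 10000 reads, and its gene tests kept the members chosen on all reads.

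Named genes were up to 10 called per direction with the largest changes, the same sign throughout, at least 50 reads and 10 wells on the higher side, then up to 5 uncalled as description, plus the lists. Called genes short of these minimums, and Gstm1, Hes1, Trpm1, H2-D1 and Serping1 in the comparison of members, were chosen after their values were seen. The members and the 20 gene lists were chosen with earlier results of these data known. 1 gene of the lists is not reported here.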

Additional observations from a re-analysis of the deposited data

Results flagged for a closer look

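These results were marked because the change between genotypes differed between members and all other wells by a test of that difference, edgeR's interaction term. The test called 42 genes. Values are log2, the change in members minus the change in other wells. The wells were chosen by marker levels, so the values of Müller markers are a description. Above 0 stood Ctss (10.3), Kcne2 (8.83), C1qb (8.72), Gnat2 (4.65), Opn1sw (4.32), Rpgrip1 (4.22), Opn1mw (3.94), Pde6h (3.83), Arr3 (3.62) and Cplx3 (3.21). Below 0 stood Gstm1 (-6.51), Dapl1 (-4.34), Ccn1 (-4.04), Crip2 (-3.64), Spc25 (-3.38), Crym (-3.32), S100a16 (-3.25), Cnn3 (-3.15), Prdx6 (-3.11) and Cp (-3.09).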

How the results depend on the processing

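With 1 library per genotype and age, left-out ages and depth limit every comparison. The mean difference in member share turned from -1.55 to 0.0340 points with an Apoe minimum of 10000 CPM, and ran from -3.36 to 0.787 points with 1 age left out. With DESeq2, the count of called genes was 249 for KO against WT members, 3072 for members against other wells, 128 against reactive wells and 306 for the interaction. With 1 age left out, the counts in that order ran from 1 to 11, 0 to 36, 2 to 24 and 22 to 61. With wells thinned to 10000 reads they were 0, 469, 8 and 35. With the members left out whose rod markers were at least as high as the rule's marker genes (chosen after seeing the data) they were 0, 2949, 11 and 4, and in the contrast with reactive wells Gngt1 and Sag turned to -0.0875 and -0.164, which the choice itself fixes, since both are rod markers of the sum that left out members alone. KO against WT members gave 10 calls with relative log expression factors and 1 without the members high in microglia markers (chosen after seeing the data). An Apoe minimum of 20000 CPM gave 85 calls for members against other wells. Age paired the libraries in the fit; with genotype alone and no replicate block the count of calls was 1. DESeq2 moved the median change over all genes from -1.62 to -1.07 for members against other wells. The causes of the other shifts were not tested.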
